A study of Rattus norvegicus with 12 samples.

Results

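The genes described here encode the axonal cytoskeleton and the motor proteins that run on it, measured in rat L5 dorsal root ganglia (DRG), the clusters of sensory neuron cell bodies beside the spinal cord. They were chosen by a rule on gene symbols, with earlier results of these data known. The rule took the intermediate filament genes Nefl, Nefm, Nefh, Ina, Prph and Vim, the tubulins, kinesins, kinesin light chains and cytoplasmic dyneins. It also took the dynactin subunits, stathmins, ankyrins, spectrins, the microtubule-associated proteins Map1a, Map2, Map4 and Mapt, and Sncg. The rule found 48 genes, each with 1 probeset, among 8260 probesets on the array, of which 7603 carried exactly 1 gene symbol. In the LID group (local inflammation of the DRG) the ganglion was inflamed with zymosan, a yeast cell wall preparation (2 mg/ml, 10 µl, carried by incomplete Freund's adjuvant), applied to the L5 DRG of one side. Sham animals had the same incision and exposure of the foramen without the injection. All were adult male Sprague Dawley rats, all ganglia were taken on day 3 after surgery, and each of the 12 arrays (6 LID, 6 sham) held RNA from 1 whole ganglion with all its cell types.

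The cytoskeleton of a sensory neuron has to carry an axon far longer than the cell body is wide. Neurofilaments, built from light, medium and heavy chains together with alpha-internexin or peripherin, fill the axon and set its caliber. Microtubules, polymers of alpha- and beta-tubulin, are the tracks on which kinesins move cargo outward and cytoplasmic dynein, with its partner dynactin, moves cargo back to the cell body. Tau and the other microtubule-associated proteins stabilize these tracks, stathmins promote their turnover, and spectrin with ankyrin forms the lattice under the axonal membrane. After peripheral axotomy, sensory neurons are known to lower neurofilament expression and to raise certain tubulins. The LID model involves no cut axon, so these genes address how an inflamed ganglion compares with a sham ganglion in this respect.

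The deposited values are log2 expression values from which the median over the 12 arrays was subtracted for each probeset. A value is thus a deviation from that median, levels of different genes cannot be compared, and whether a gene is expressed at all cannot be read. Probes of one gene were combined over its exons, so isoforms are not resolved. Over all probesets the medians of the arrays ran from -0.035 to 0.015 in LID and from -0.019 to 0.095 in sham arrays, with sham replicate 2 the highest. That array held the highest of the 12 values for 33.2% of all probesets. Of 10 macrophage and monocyte markers all 10 rose in LID, and their mean ran from 0.28 to 1.03 in LID arrays and from -1.10 to -0.21 in sham arrays (log2).

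Most of the 48 axonal cytoskeleton and motor genes measured here differed little between LID and sham ganglia. Of the 48, 1 rose in LID (Vim), 6 fell (Map2, Dctn2, Sptb, Ina, Kifc2 and Kif5a) and 41 did not pass the test (limma, moderated variances, Benjamini-Hochberg adjusted p under 0.05 over all 8260 probesets). The share called was 14.6%, against 19.4% of all probesets. By direction, 12.5% of the 48 were lower, against 11.7% of all probesets, and 2.08% were higher, against 7.66%. At an unadjusted p under 0.05, 12 of the 48 passed, against 29.9% of all probesets, and 16 differed by 0.10 or more on the log2 scale in either direction, against 45.6%. The median log2 fold change (LID minus sham) was -0.011 over the 48 genes and -0.022 over all probesets, and the middle of the distribution ran from -0.081 to 0.061 (quartiles) for the 48 genes and from -0.11 to 0.064 for all probesets. None of the 48 changed 1.5-fold, which 2.99% of all probesets did while passing the test. The count of 7 became 4 without sham replicate 4, where 15.4% of all probesets passed. It was also 4 without the second replicate of each group, where 15.9% passed. With single arrays left out it lay between 4 and 8, and 15.3% to 19.9% of all probesets passed. With each array centred on its own median, 6 fell and 2 rose, the second being Kif1c, and 18.1% of all probesets passed.

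**Figure D1:**
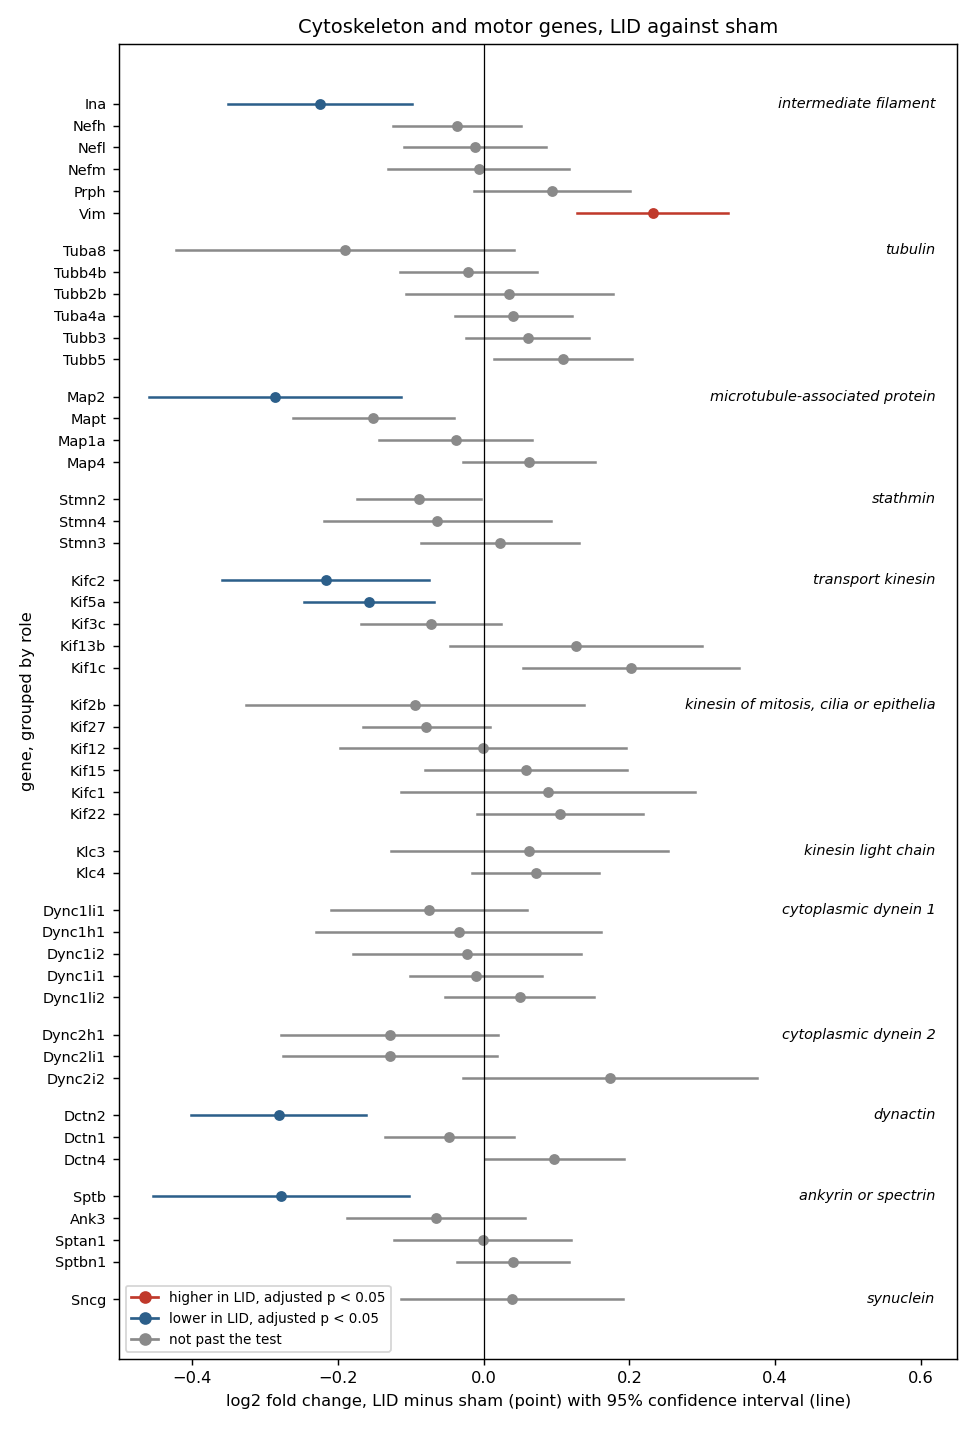
Log2 fold change (LID minus sham, horizontal axis) of the 48 genes, grouped by role, with points for the estimate and lines for the 95% confidence interval (n = 6 arrays per group). Vim lies to the right with its interval above 0, the 6 called lower genes lie between -0.29 and -0.16, and most others crowd around 0.

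**Figure D2:**
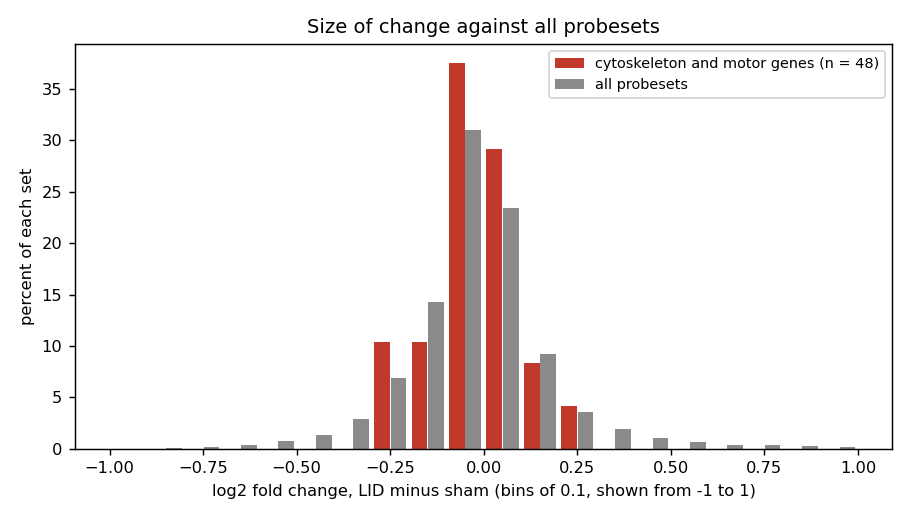
Percent of the 48 genes and of all 8260 probesets in bins of log2 fold change (LID minus sham, horizontal axis, shown from -1 to 1). The cytoskeleton and motor genes all lie between -0.29 and 0.23, whereas all probesets reach -1.51 and 2.78, past the ends of the axis.

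For the 41 genes that did not pass, the confidence intervals give how large a change in array values the data still allow. All 41 intervals stayed within 1.5-fold in either direction, 33 within 1.2-fold and 10 within 1.1-fold. The narrowest was that of Dync1i1, an intermediate chain of dynein, which reached 1.07-fold, and the widest that of Tuba8, an alpha-tubulin, which reached 1.34-fold. Each interval was computed for its gene alone, without adjustment for the number of genes. The paper describes fold changes as compressed on microarrays, so these limits hold for array values and do not exclude larger changes in RNA. The spread within groups was also small for these genes, with a median SD of 0.092 (log2) over the 48, against 0.13 over all probesets.

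The neurofilament chains were at nearly the same values in LID and sham ganglia, while another neuronal filament gene, Ina, fell and the non-neuronal filament gene Vim rose. Nefl, the light chain on which the polymer is built, had its lowest, median and highest values at -0.096, -0.024 and 0.11 in LID and at -0.043, 0.00095 and 0.070 in sham arrays (log2 deviation from the median of the 12 arrays). Nefm, the medium chain, ran from -0.17 through -0.022 to 0.15 in LID and from -0.13 through 0.016 to 0.040 in sham arrays, and Nefh, the heavy chain, from -0.094 through -0.026 to 0.055 in LID and from -0.040 through 0.026 to 0.073 in sham arrays. The groups overlapped for all 3 chains, and the LID arrays were the more widely spread. Their log2 fold changes were -0.011 (95% confidence interval -0.11 to 0.086), -0.0065 (-0.13 to 0.12) and -0.036 (-0.12 to 0.051), and the signs of Nefl and Nefm turned when the arrays were centred on their medians. Peripherin (Prph), the filament of small-caliber peripheral neurons, had medians of 0.024 in LID and -0.058 in sham arrays, with a log2 fold change of 0.094 (-0.013 to 0.20, adjusted p = 0.233).

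Ina encodes alpha-internexin, which co-assembles with the neurofilament chains. Its values were -0.30, -0.13 and 0.0033 in LID (lowest, median, highest) and -0.0033, 0.082 and 0.17 in sham arrays. Only the highest LID array, replicate 6, reached into the sham range, and there only past the lowest sham array, replicate 1. Ina fell by 0.22 (log2, standard error 0.058, n = 6 per group, adjusted p = 0.016) and stayed past the test whichever array was left out (adjusted p 0.0094 to 0.041). In whole ganglia, fewer cells of a type and less RNA per cell cannot be told apart. Of 15 general and subtype markers of sensory neurons measured beside it, 2 fell, the neurotrophin receptors Ntrk3 (log2 fold change -0.33) and Ntrk2 (-0.20), and none rose, with a median of 0.016. The mean of these markers ran from -0.13 to 0.11 in LID and from -0.068 to 0.074 in sham arrays, and their part in the lower neuronal genes described here was not tested.

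Vim encodes vimentin, the filament of glia, fibroblasts, endothelium and leukocytes. All 6 LID arrays (lowest 0.027, median 0.088, highest 0.15) lay above all 6 sham arrays (-0.26, -0.17 and -0.027). In all, 4 of the 48 genes had groups without overlap, 3 lower and 1 higher, or 8.33%, against 10.0% of all probesets (6.42% lower and 3.62% higher). Vim rose 1.17-fold (95% confidence interval 1.09 to 1.26, adjusted p = 0.0046), with adjusted p between 0.0031 and 0.014 as single arrays were left out. Of 10 other intermediate filament and plakin genes, 4 rose and none fell: Gfap, the filament of activated satellite glia, at 2.49-fold, Des, of muscle and pericytes, at 1.92-fold, Nes, of progenitors and reactive glia, at 1.36-fold, and the nuclear lamin Lmna at 1.24-fold. Beside Vim, 2 of 6 fibroblast markers and 2 of 3 endothelial and pericyte markers rose. Of 6 satellite glial markers, 1 rose, the Gfap already counted above, and 2 fell, Kcnj10 (log2 fold change -0.42) and Slc1a3 (-0.48). None of 8 Schwann cell marker probesets passed the test. The mean of the fibroblast markers ran from -0.17 to 0.46 in LID and from -0.57 to 0.094 in sham arrays, and that of the endothelial and pericyte markers from -0.035 to 0.24 in LID and from -0.36 to -0.033 in sham arrays. The part of these cells and of the macrophages in the rise of Vim was not tested.

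**Figure D3:**
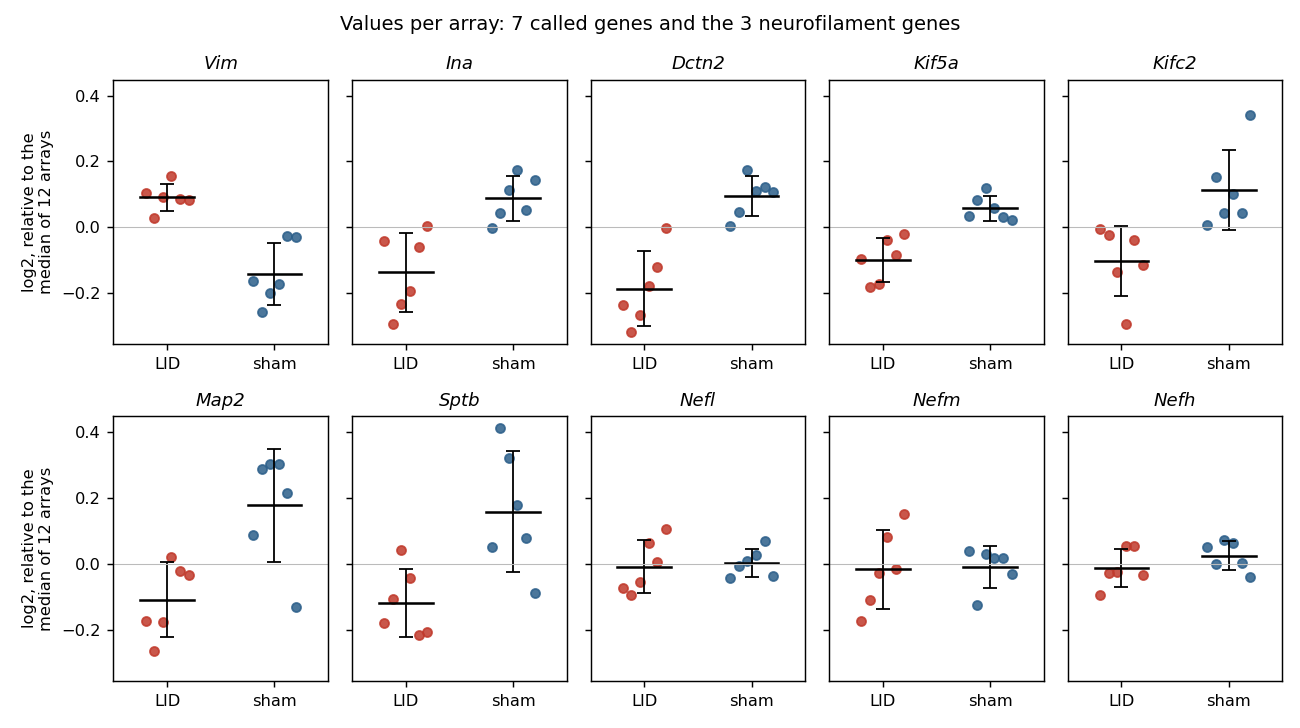
Values of the 7 called genes and of the neurofilament genes Nefl, Nefm and Nefh in each array (log2 deviation from the median of the 12 arrays), LID on the left and sham on the right of each panel, with the mean (long bar) and SD (whiskers) of 6 arrays. Vim, Dctn2, Kif5a and Kifc2 have groups that do not overlap, whereas the 3 neurofilament genes overlap throughout.

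**Figure D4:**
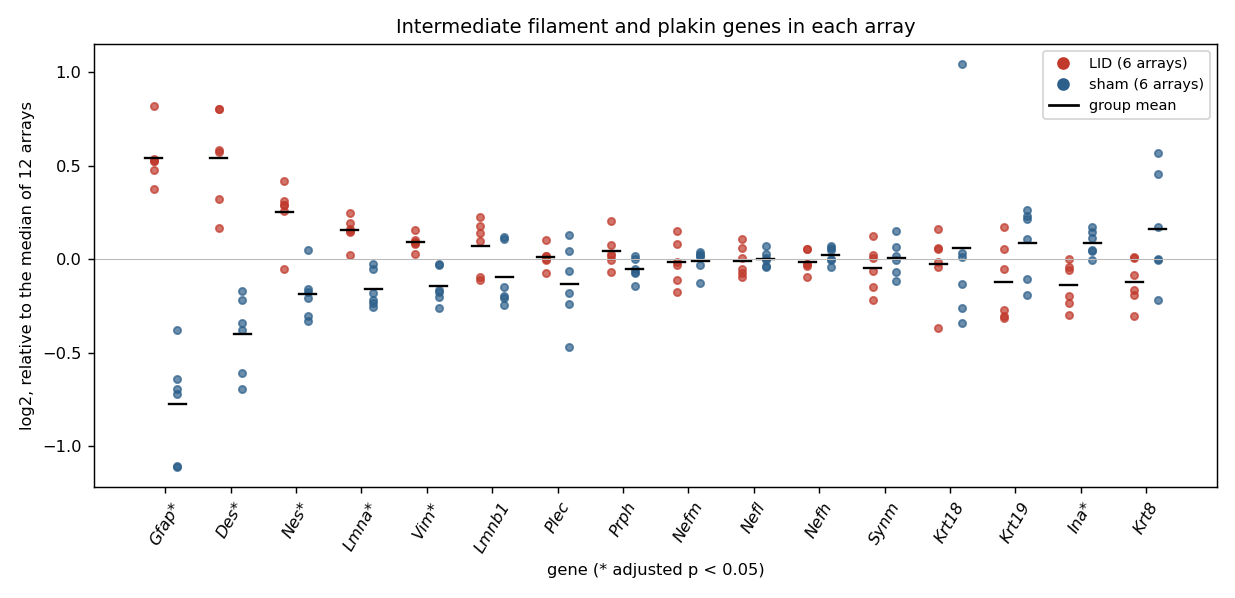
Values per array (log2 deviation from the median of the 12 arrays) of 16 intermediate filament and plakin genes, ordered by log2 fold change, with LID points left of sham points and a bar for each group mean (n = 6). Gfap, Des, Nes, Lmna and Vim stand at the high end, the neurofilament genes in the middle and Ina, the only called lower gene of the 16, near the low end.

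Promoter sequences were looked up in RefSeq (build GRCr8) for the window of 250 bases before to 50 after the start of each gene, and 36 of the 48 genes matched. Shown are Vim and Ina, filament genes that went opposite ways, and Dctn2, the lower gene with the smallest adjusted p. Capitals mark matches on either strand to 6 motifs. These were the core promoter element TATAAA, the upstream element CCAAT that binds the factor NF-Y, and the element GGGCGG (GC box) that binds Sp1. The others were the AP-1 site written TGANTCA, the cyclic AMP element written TGACGTCA, and the E box with the letters CACGTG.
Vim, chr17:81577011-81577310, + strand: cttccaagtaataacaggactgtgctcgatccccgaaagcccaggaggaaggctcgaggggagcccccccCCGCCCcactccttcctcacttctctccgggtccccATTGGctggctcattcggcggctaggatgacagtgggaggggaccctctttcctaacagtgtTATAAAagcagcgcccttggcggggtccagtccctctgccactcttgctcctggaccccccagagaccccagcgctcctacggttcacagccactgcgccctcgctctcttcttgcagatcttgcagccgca
Ina, chr1:255837879-255838178, + strand: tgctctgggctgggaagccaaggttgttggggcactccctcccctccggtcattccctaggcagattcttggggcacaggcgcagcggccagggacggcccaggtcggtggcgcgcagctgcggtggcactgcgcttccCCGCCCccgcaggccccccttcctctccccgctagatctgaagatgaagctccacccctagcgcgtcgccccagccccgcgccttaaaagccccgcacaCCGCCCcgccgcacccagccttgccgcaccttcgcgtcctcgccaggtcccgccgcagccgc
Dctn2, chr7:64977216-64977515, + strand: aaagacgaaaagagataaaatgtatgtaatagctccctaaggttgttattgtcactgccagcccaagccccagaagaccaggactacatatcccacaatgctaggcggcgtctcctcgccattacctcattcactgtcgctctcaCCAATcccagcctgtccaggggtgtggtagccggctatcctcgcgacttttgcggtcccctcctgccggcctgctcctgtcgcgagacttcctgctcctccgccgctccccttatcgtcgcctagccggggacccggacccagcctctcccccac
The Vim window held a TATAAA at base 169, a CCAAT match at base 107 and a GC box at base 71 of the window. Ina had GC boxes at bases 140 and 239, and Dctn2 a CCAAT match at base 146. Over the 36 windows, 24 (66.7%) held a GC box, against 33.1% of all 33469 promoter windows, and the median GC content was 62.0% against 51.7%. TATAAA was found in 7 (19.4% against 14.2%), CCAAT in 12 (33.3% against 37.5%), CACGTG in 3 (8.33% against 6.42%), and TGANTCA and TGACGTCA in 1 each (2.78%, against 7.33% and 1.83%). The 33469 windows were not limited to genes on the array, and shares at matched GC content were not computed. These are matches of letters in a window, and no binding was measured.

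None of the 6 tubulin genes passed the test. Tubb3, the neuron-specific beta-tubulin, had values of -0.017, 0.025 and 0.055 in LID (lowest, median, highest) and -0.12, -0.020 and 0.037 in sham arrays, with a log2 fold change of 0.060 (95% confidence interval -0.024 to 0.14, adjusted p = 0.351). Tubb2b, a beta-tubulin of growing and mature axons, was most spread in the sham arrays, from -0.28 in replicate 1 to 0.12 in replicate 5, with a log2 fold change of 0.036 (-0.11 to 0.18). The broadly expressed Tubb5 came closest at 0.11 (0.014 to 0.20, adjusted p = 0.109), Tubb4b was at -0.021, and the alpha-tubulin Tuba4a was at 0.041. Tuba8 had the widest spread of the 48 within groups (SD 0.20, log2), with sham values from -0.14 to 0.54 and LID values from -0.13 to 0.081. Tubulin genes are similar enough in sequence that probes of one may also read another, and the Tuba1 genes have only probesets that name several of them.

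The stathmins, which bind free tubulin and destabilize microtubules, did not pass the test either. Stmn2, a stathmin of growth cones that marks neurons, had LID values of -0.12, -0.066 and 0.0043 and sham values of -0.043, 0.033 and 0.086, with a log2 fold change of -0.089 (-0.17 to -0.0035, adjusted p = 0.148). Stmn3 and Stmn4 had log2 fold changes of 0.022 and -0.063. The LID arrays of Stmn4 spread from -0.32 in replicate 2 to 0.19 in replicate 6, more than the sham arrays, which ran from -0.051 to 0.091. Sncg, gamma-synuclein, a protein abundant in sensory axons, had a log2 fold change of 0.039 (-0.11 to 0.19).

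Among the microtubule-associated proteins, Map2 fell. Map2, which bundles microtubules in cell bodies and dendrites, had values of -0.27, -0.10 and 0.022 in LID and -0.13, 0.25 and 0.30 in sham arrays. In all, 5 sham arrays lay above every LID array, and sham replicate 6, at -0.13, lay below 3 of them. Map2 fell by 0.29 (log2, standard error 0.080, adjusted p = 0.0231). Its call was lost without LID replicate 1 (adjusted p = 0.0501), 2 (0.0536) or 3 (0.0531) or sham replicate 3 (0.0566) or 4 (0.0563), and at 0.0883 without the second replicate of each group. Tau (Mapt), the axonal counterpart, had LID values of -0.23, -0.069 and 0.014 and sham values of -0.015, 0.045 and 0.13, with a log2 fold change of -0.15 (-0.26 to -0.041) that just missed the test (adjusted p = 0.0545). It passed without LID replicate 6 (0.0338) or sham replicate 2 (0.0431). Map1a, which stabilizes axonal microtubules, and Map4, the form of most non-neuronal cells, had log2 fold changes of -0.038 and 0.063 with intervals that included 0. Without sham replicate 6, Map1a was at -0.072 (adjusted p = 0.267).

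Of 5 kinesins that carry cargo in the cell, Kif5a and Kifc2 fell. Kif5a, the neuronal heavy chain of kinesin-1 that moves neurofilaments and vesicles outward along the axon, had values of -0.18, -0.090 and -0.022 in LID and 0.022, 0.045 and 0.12 in sham arrays. The groups did not overlap and the spread was narrow in each. Kif5a fell by 0.16 (log2, standard error 0.041, adjusted p = 0.0174), and the call held with any single array left out (adjusted p 0.014 to 0.045) but not without the second replicate of each group (0.0529). Kifc2, a neuronal kinesin with its motor at the carboxyl end, had values of -0.29, -0.077 and -0.0060 in LID and 0.0060, 0.072 and 0.34 in sham arrays, again without overlap. It fell by 0.22 (standard error 0.066, adjusted p = 0.0337), with LID replicate 4 the lowest and sham replicate 6 the highest array. This call was lost without LID replicate 3 (0.0699), 4 (0.0692) or 6 (0.0556) or sham replicate 2 (0.0545), 4 (0.0604) or 6 (0.052), and without the second replicate of each group (0.0627).

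Kif1c, a kinesin-3 motor found in many cell types, lay on the other side, at LID values of -0.083, 0.082 and 0.18 and sham values of -0.29, -0.14 and 0.060. Its log2 fold change of 0.20 (0.054 to 0.35) did not pass (adjusted p = 0.0556), but did without LID replicate 6 (0.0332) or sham replicate 1 (0.0427) or 2 (0.0197) and in 10 of 22 alternatives in all. It was singled out after its value was seen. The kinesin-2 motor Kif3c and the kinesin-3 motor Kif13b had log2 fold changes of -0.072 and 0.13, and the light chains Klc3 and Klc4, which link kinesin-1 to cargo, had 0.063 and 0.071. None of 6 kinesins of mitosis, cilia or epithelia passed, with log2 fold changes from -0.094 (Kif2b) to 0.11 (Kif22). Of these, Kif15, Kif22, Kif2b and Kifc1 act in the mitotic spindle, and none of 6 markers of proliferating cells measured beside them passed the test (median log2 fold change 0.14).

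The dynein motor for transport back to the cell body did not pass the test in its heavy chain or in any of its 4 intermediate and light intermediate chains, while Dctn2 of its activator dynactin fell. Dctn2, dynamitin, which holds the dynactin shoulder together, had values of -0.32, -0.21 and -0.0018 in LID and 0.0018, 0.11 and 0.17 in sham arrays. The groups did not overlap, with LID replicate 6 nearest to the sham arrays and sham replicate 1 nearest to the LID arrays. Dctn2 fell by 0.28 (log2, standard error 0.056, adjusted p = 0.0036), the smallest adjusted p of the 48, and stayed past the test in all 22 alternatives (0.0011 to 0.011). The other dynactin subunits measured here did not share this value. Dctn1, the arm that grips microtubules, had a log2 fold change of -0.047 (-0.14 to 0.042) and Dctn4, of the pointed end, of 0.097 (0.0020 to 0.19, adjusted p = 0.157). The dynein chains Dync1i1, Dync1i2, Dync1li1 and Dync1li2 had log2 fold changes between -0.074 and 0.049. The heavy chain Dync1h1, which holds the motor domain, had LID values of -0.071, -0.021 and 0.039 and sham values of -0.43, 0.095 and 0.21, with a log2 fold change of -0.034 (-0.23 to 0.16). Its lowest value was that of sham replicate 6, without which the log2 fold change was -0.12 (adjusted p = 0.092).

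Dynein 2, the motor of transport inside cilia, had no gene past the test when all arrays were compared by group alone with equal weights. Its heavy chain Dync2h1 had LID values of -0.15, -0.052 and 0.021 and sham values of -0.25, 0.14 and 0.17, with 5 sham arrays above every LID array and sham replicate 6 below them all. The log2 fold change was -0.13 (adjusted p = 0.241), and -0.19 without sham replicate 6 (adjusted p = 0.0060), which then passed the test. Dync2li1 was at -0.13 and Dync2i2 at 0.17, both with intervals that included 0. With array weights Dync2i2 was at 0.26 (adjusted p = 0.0144) and Dync2h1 at -0.16 (adjusted p = 0.0439), and both passed. Dync2i2 also passed with the replicate number as a block (adjusted p = 0.0316).

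Of the genes for the membrane skeleton, Sptb fell. Sptb encodes beta-I spectrin, the form of red cells, muscle and neurons, and had values of -0.22, -0.14 and 0.042 in LID and -0.088, 0.13 and 0.41 in sham arrays. The groups overlapped, with sham replicate 6 below LID replicates 3 and 4, and sham replicate 2 was the highest array. Sptb fell by 0.28 (log2, standard error 0.082, adjusted p = 0.0293). The call was lost without LID replicate 1 (0.0611), 2 (0.0514), 5 (0.0625) or 6 (0.0564) or sham replicate 3 (0.0700) or 4 (0.0585), and without the second replicate of each group (0.0755). The other spectrins measured here were near 0. Sptan1, the common alpha chain, and Sptbn1, the beta-II chain of the axonal lattice, had log2 fold changes of -0.0014 (-0.12 to 0.12) and 0.040 (-0.037 to 0.12). Sptbn1 had the smallest spread within groups of all 48 (SD 0.034, log2). Ank3, ankyrin-G, which gathers sodium channels at the axon initial segment and nodes, had LID values of -0.18, -0.038 and 0.0092 and sham values of -0.21, 0.059 and 0.079, with a log2 fold change of -0.065 (-0.19 to 0.056). Without sham replicate 6, Ank3 was at -0.11 (adjusted p = 0.0998) and Sptan1 at -0.048 (adjusted p = 0.500).

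**Figure D5:**
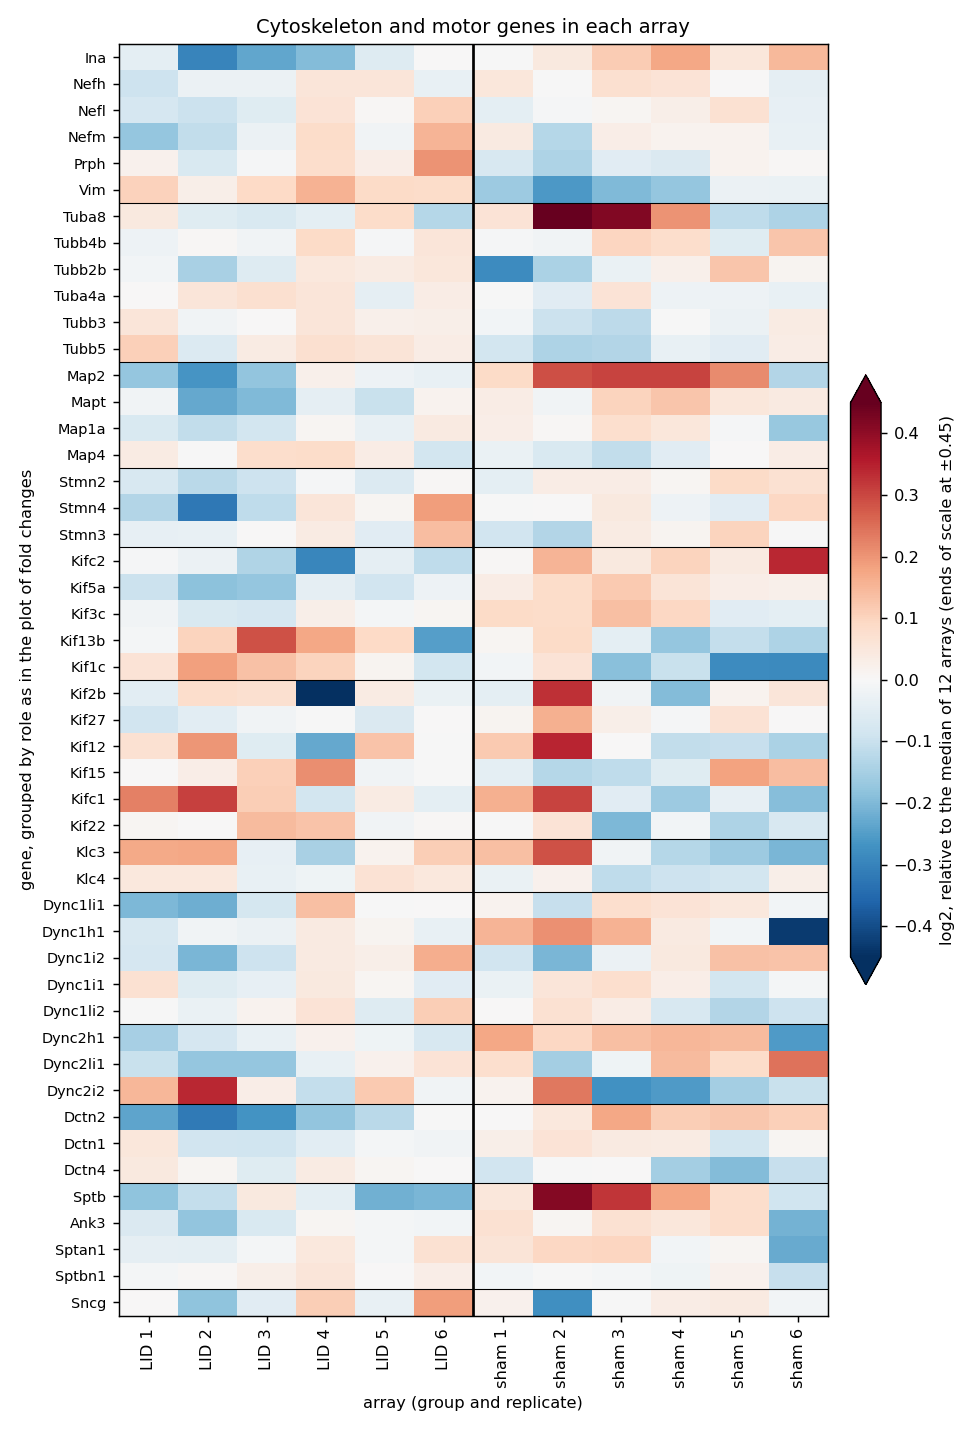
Values of the 48 genes (rows, grouped by role) in each array (columns, LID left and sham right), colored by the log2 deviation from the median of the 12 arrays, with the scale cut at 0.45 either way. Rows with a clear change of color at the middle line are few (Vim, Ina, Dctn2, Kif5a), and single arrays such as sham replicate 6 in Dync1h1 stand out in others.

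Several genes differed more among sham arrays than between the groups. Sham replicate 6 held the lowest of the 12 values in 10 of the 48 genes, and in 11.9% of all probesets. The 10 were Dync1h1, Dync2h1, Ank3, Sptan1, Sptbn1, Map1a, Tuba8, Kif1c, Kifc1 and Klc3. Their mean was -0.22 in that array, against -0.036 to 0.16 in the other sham arrays and -0.012 to 0.019 in LID arrays. Since they were picked for being lowest there, the gap is a description. LID replicate 2 was likewise the lowest in 10 genes, among them Ina, Dctn2, Kif5a, Map2, Mapt, Nefl, Stmn2 and Stmn4, against 14.8% of all probesets. Sham replicate 2, the highest array for 33.2% of all probesets, was the highest in 8 of the 48. Without sham replicates 2 and 6, an alternative chosen after the values were seen, 8 of the 48 passed, 6 of them among the original 7, and 17.8% of all probesets passed. The gene lost was Kifc2, at a log2 fold change of -0.15 (adjusted p = 0.102).

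Genes that work with this machinery were also measured, and some passed the test, where 11.7% of all probesets were lower and 7.66% higher. Of 14 genes that bind or steer microtubules, 5 fell and none rose, led by Mapre3, a neuronal plus-end binding protein (log2 fold change -0.32, adjusted p = 0.0011), Dcx, doublecortin (-0.25), and the related kinase Dclk1 (-0.18). Of 5 tubulin modifying enzymes 2 fell, the glutamylase Ttll5 (-0.26) and the deacetylase Sirt2 (-0.26). Of 9 genes listed for kinesin cargo and its adaptors, 3 fell and none rose. These were Grip1, which links kinesin-1 to glutamate receptors (-0.24), the glutamate receptor subunit Gria2 (-0.19) and the synaptic scaffold Dlg4 (-0.19). Of 9 regulators and adaptors of dynein, Dynlrb1, a dynein light chain, fell (-0.32), as did the late endosome GTPase Rab7a (-0.25), while Pafah1b1, the dynein regulator LIS1, rose 1.14-fold. Of 7 genes for tubulin folding and severing, Arl2, a GTPase of the folding pathway, fell (-0.42) and the tubulin folding cofactor Tbca rose 1.21-fold. The median log2 fold changes of these lists were -0.058, -0.098, -0.043, -0.073 and 0.053 in the order given, against -0.022 over all probesets.

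At the membrane, Nfasc, neurofascin, which ankyrin-G anchors at nodes and initial segments, fell by 0.30 (log2, standard error 0.043, adjusted p = 0.000465), and its LID arrays (-0.22, -0.13 and -0.072) all lay below its sham arrays (0.072, 0.17 and 0.24). It was 1 of 3 lower and 1 higher among 17 membrane partners of ankyrin and spectrin. Of 21 probesets for the actin cytoskeleton of axons and growth cones, 4 rose and 4 fell. Evl, which extends actin filaments at the growth cone, fell (-0.38). Arpc1b, an Arp2/3 subunit abundant in blood cells, rose 1.46-fold in 1 of its 2 probesets (the other had a log2 fold change of 0.14, adjusted p = 0.521), and Tpm4, a tropomyosin of non-muscle cells, rose 1.28-fold. Of 17 genes of the axon injury response, 7 rose and none fell, among them Npy (2.25-fold), Reg3b (2.60-fold) and Fgf2 (1.84-fold), with a median log2 fold change of 0.18. These lists were drawn up with earlier results of these data known.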

How the data were processed

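The values were deposited by the authors as log2 expression of the core transcript set of the Affymetrix Rat Exon ST 1.0 array. According to the methods, they were summarized per gene by RMA16 in the GeneSpring software, with quantile normalization and a baseline transformation to the median of all samples. In the file, all 8260 probesets have a median of 0 over the 12 arrays, so no filter on low signal could be applied. Per the labels, RNA came from 1 of 2 column kits (which sample had which is not given in the sources used here), and the build was rn4. Gene symbols came from the platform annotation. For probesets with 1 symbol and 1 gene identifier they were updated to the RefSeq symbol of that identifier, where it was found.

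LID was compared with sham per probeset in limma 3.58.1 (R 4.3.3), two-sided, with moderated variances and Benjamini-Hochberg adjustment over all probesets. Other values used Python 3.11.15, pandas 2.3.3 and numpy 2.4.6. Each array is a biological replicate by its label (6 per group, which limits the precision). Over all 66 pairs of arrays, at most 1 of the 8260 probesets had equal values. Named genes were 23 of a panel of 39 that the array measured under the rule, and all genes that passed the test; the other 22 were described to account for every gene. For other lists, up to 3 called genes with the largest changes were named, and Lmna as the last of 4. Genes and lists were chosen with earlier results of these data known. In a simulation that kept each probeset's spread, 100 changes of 1.5-fold and 100 of 1.15-fold were planted among 8260 probesets. Of these, 92% and 33% were found, with 9 false calls. In the data 1601 probesets were called, so the adjusted threshold was stricter in the simulation. Its shares therefore do not give the sensitivity in these data. Alternatives in moderation, scaling, weights, thresholds, filters, replicate block and arrays left out were run. The authors' own tables, the qPCR and the other pain models were not used here.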

Additional observations from a re-analysis of the deposited data

Results flagged for a closer look

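In 7 of 52 groups of 6 arrays (26 named genes, LID and sham), the lowest array stood apart from its group by more than Dixon's test allows. The test flags about 1 in 20 single groups by chance, but these groups share the same 12 arrays and are not independent. No share over all probesets was computed, so the count cannot be called particular to these genes. All 7 flagged groups were sham groups. Sham replicate 6 was the array in 5 of them, with -0.43 for Dync1h1 (next lowest -0.012), -0.23 for Sptan1 (-0.011), -0.21 for Ank3 (0.010), -0.17 for Map1a (-0.0061) and -0.10 for Sptbn1 (-0.021), all as log2 deviations from the median of the 12 arrays. Sham replicate 2 was the lowest for Sncg at -0.28 (next lowest -0.011), and sham replicate 5 for Dctn1 at -0.084 (next lowest 0.0078). None of these 7 genes passed the test in the full set or without any single array. The smallest adjusted p with 1 array left out was 0.092 for Dync1h1 and 0.0998 for Ank3.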

How the results depend on the processing

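Over 23 alternatives, the 583 values of single named genes kept direction and side of the threshold in 512 cases, lost the call in 29, gained it in 5 and changed sign in 37, none of the last in a called gene. Vim and Dctn2 stayed past an adjusted p of 0.05 in all 22 alternatives that keep this threshold (0.00092 to 0.014 and 0.0011 to 0.011), as did Ina (0.0091 to 0.042). The count of 7 called genes became 13 (8 lower, 5 higher) with array weights, where 26.2% of all probesets passed, 2 (1 lower, 1 higher) at an adjusted p of 0.01 (10.1%), 0 (0 lower, 0 higher) with a 1.5-fold minimum (2.99%), and 4 (2 lower, 2 higher) without the second replicate of each group (15.9%). The count was 8 (6 lower, 2 higher) with arrays centred on their medians (18.1% of all probesets) and 8 (6 lower, 2 higher) with quantile normalization repeated (19.2%). It was 9 (7 lower, 2 higher) with chemosensory receptors left out (23%), and 8 (6 lower, 2 higher) without sham replicates 2 and 6 (17.8%). With single arrays left out, the count ran from 4 to 8, the lower genes from 3 to 6 and the higher genes from 1 to 2. The share of all probesets called then ran from 15.3% to 19.9%. With the replicate number as a block, 7 were called (4 lower, 3 higher), 5 of them among the original 7, and 20.3% of all probesets passed. Kif1c (adjusted p = 0.0186) and Dync2i2 (0.0316) were gained there, and Kif5a (0.0505) and Kifc2 (0.0507) were lost. The arrays share only a number: same-numbered LID and sham arrays had correlations of their deviations from -0.15 to 0.40. Only LID replicate 4 correlated best with the sham array of its own number. The cause of these differences was not tested.

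Signs that turned belonged to values near 0. With arrays centred on their medians they were Nefl 0.0068, Nefm 0.012, Dync1i1 0.0083 and Sptan1 0.017 (log2), and with quantile normalization repeated Nefl 0.012, Nefm 0.0041, Dync1i1 0.010 and Sptan1 0.015. Without the second replicates they were Dync1h1 0.0030, Nefl 0.0045, Dync1i1 0.010 and Sptan1 0.026. Array weights gave Stmn3 -0.020 and Sncg -0.0028, and leaving out sham replicates 2 and 6 gave Stmn3 -0.0049 and Sncg -0.017. With single arrays left out, the ranges that crossed 0 were Dync1h1 -0.12 to 0.0031, Nefl -0.034 to 0.0062, Nefm -0.040 to 0.025, Dync1i1 -0.028 to 0.0043, Sptan1 -0.048 to 0.018, Stmn3 -0.0033 to 0.045, Tubb2b -0.011 to 0.070 and Sncg -0.010 to 0.076. Signal over background is unknown, since no level is left.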

Other observations

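Of 6 probesets that name several genes, at least 1 of them a tubulin or kinesin, and that were left out of the counts above, 1 passed the test. The probeset for Tubg1 and Tubg2, gamma-tubulins that seed new microtubules, fell by 0.15 (log2, standard error 0.046, adjusted p = 0.0422), with LID values of -0.16, -0.039 and -0.022 (lowest, median, highest) all below sham values of 0.022, 0.044 and 0.22. Both probesets for Tuba1a, Tuba1b and Tuba1c, the main alpha-tubulins of neurons, did not pass, and their log2 fold changes differed in sign, at -0.30 (standard error 0.12, adjusted p = 0.104) and 0.065 (standard error 0.094, adjusted p = 0.734). The probeset shared by Kif1b, a motor for synaptic vesicle precursors and mitochondria, and Cort was at -0.051 (adjusted p = 0.736).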
